A study of Homo sapiens with 2 samples.

Results

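Classical cadherins and the catenins that bind them were examined in MDA-MB-231, a long-established human cell line from a triple-negative breast cancer whose cells have a mesenchymal shape. The group was a list of 10 gene symbols, and a gene was used when a probe set of the array was annotated to it alone. This left 7 of 10 genes, out of 22411 genes that had at least 1 such probe set: the cadherins CDH1, CDH2, CDH3 and CDH11, and the catenins JUP, CTNNB1 and CTNNA1. CTNND1, which encodes p120-catenin, shared its probe set with SELENOH. CDH4 and CDH13 had no named probe set, so no signal is given for them. Each of the 7 genes had 1 probe set, and none had the same pair of values as another gene. The study compared 2 stable derivatives of the line, grown in DMEM with high glucose, serum and antibiotics. The control cells carried the pLKO.1 vector, a lentiviral plasmid, and the other cells carried the same vector with a short hairpin RNA against SREBP1, labelled SREBP1 KD. The control's title reads shNC, and the labels do not say whether its vector held a hairpin of another sequence. Whether either derivative was 1 clone or a pool is not said in the labels. Each derivative was measured on 1 array, so there was no replicate error and no test, and each difference is given by its size between these 2 arrays.

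Classical cadherins are single-pass membrane proteins whose outer domains bind, in the presence of calcium, to cadherins on the neighbouring cell. Their cytoplasmic tail binds p120-catenin near the membrane, which slows endocytosis of the cadherin, and beta-catenin or plakoglobin near its end, and these in turn bind alpha-catenin, which links the complex to actin. In breast epithelium E-cadherin is the main cadherin of adherens junctions, whereas mesenchymal carcinoma cells often lack it and make N-cadherin or cadherin-11 in its place. Beta-catenin has a further role as the transcriptional arm of Wnt signalling, and plakoglobin is also part of desmosomes.

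SREBF1, the gene of the hairpin's target SREBP1, had a signal of 5.13 log2 units in control cells and 5.29 on the knockdown-labelled array. This is the opposite direction to the label, by 0.15 log2 units, so directions below follow the array's label, and SREBF1 RNA itself was not measured as lower. Signals are RMA values, which are relative, on a log2 scale and specific to each probe set, so no order of levels between different genes is given. An expression floor of 3.21 log2 units was set from 359 olfactory receptor genes, which these cells are not thought to use, as the 95th percentile of their mean signals. Genes with at least 1 of their values above this floor numbered 15677. The SD of their differences was 0.19 log2 units and their median was 0.012.

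All 6 cadherin and catenin genes above the floor had a lower value on the array labelled knockdown, and their median difference was -0.16 log2 units. Of these, 5 were above the floor on both arrays. CDH1 passed it only through its control value, so its direction follows from that filter. CDH2, left out as under the floor on both arrays, had its higher value on the knockdown-labelled array, by 0.076 log2 units. Of all genes above the floor, 41.2% had a lower value. The difference was at least 1.5-fold downward in 2 of the 6, CDH11 and JUP, and in 0.753% of all genes. It was at least 2-fold downward in CDH11 alone, and in 0.115% of all genes. None of the 6 was at least 1.5-fold higher, against 0.383% of all genes. The mean of the 6, -0.37 log2 units, lay further from 0 than their median because it is set largely by those 2 genes, while the other 4 lay between -0.16 and -0.017. The listed genes were proposed with values of these arrays known, so these counts describe the group and are no independent evidence about it. The arrays read bulk RNA, in which fewer cells that make a transcript and less of the transcript per cell cannot be told apart.

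**Figure D1:**
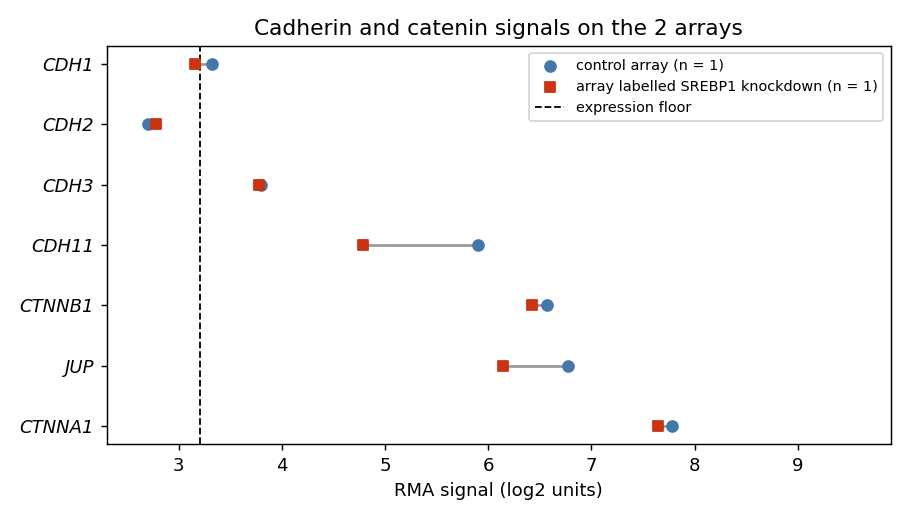
RMA signal in log2 units (x axis) of the 7 cadherin and catenin genes (y axis) in control cells (circles) and on the array labelled SREBP1 knockdown (squares), with 1 array per group and no error bars. The gap is widest for CDH11, from 5.90 to 4.79, and next for JUP, from 6.77 to 6.14, while both values of CDH2 lie under the expression floor (dashed line, 3.21).

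CDH11 encodes cadherin-11, or OB-cadherin, a type II cadherin known from osteoblasts, fibroblasts and mesenchymal tumour cells. Its signal was 5.90 log2 units in control cells and 4.79 on the knockdown-labelled array, both above the floor. It was thus 2.16-fold lower, a difference of -1.11 log2 units, and only 11 of the 15677 genes had a lower difference. That difference was 5.70 times the SD, 0.19 log2 units, among the 500 genes nearest to it in mean signal. This SD describes spread between genes on these arrays and is no replicate error. The 3 protein-coding genes whose pair of values lay nearest to that of CDH11 were DAAM1, TNFSF15 and ZMYM2, at distances of 0.089, 0.25 and 0.29 log2 units. With only 2 values per gene this says little more than that they had a like level and a like difference, of -1.03, -1.21 and -0.93 log2 units.

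The type I cadherins were at or near the floor. CDH1 encodes E-cadherin, which holds epithelial cells together. It had a signal of 3.32 log2 units on the control array, 0.11 above the floor, and of 3.16 on the array labelled knockdown, under the floor. With the lower value set to the floor it was 1.08-fold lower, which is no lower bound with 1 array per group and a control value this near the floor. Its measured difference of -0.16 log2 units was 1.01 times the SD of genes at its level. CDH2 encodes N-cadherin, the cadherin of neural tissue and of many mesenchymal cells. Its signals, 2.70 in control cells and 2.78 on the knockdown-labelled array, were both under the floor, so no fold is given for it. The balance of CDH1 and CDH2 cannot be read from such values. CDH3 encodes P-cadherin, found in basal and myoepithelial cells of the breast. Its signals of 3.79 and 3.77 log2 units lay above the floor by 0.58 and 0.57. They differed by 0.017 log2 units, well inside the SD of 0.17 for genes at its level. Of the group's cadherins with a signal, CDH3 and CDH11 were above the floor on both arrays, and their differences lay 1.09 log2 units apart.

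Catenin signals were well above the floor on both arrays. JUP encodes plakoglobin, or gamma-catenin, the close relative of beta-catenin that binds the tails of classical and of desmosomal cadherins. It had a signal of 6.77 log2 units in control cells and 6.14 on the knockdown-labelled array, or 1.55-fold lower. The difference of -0.63 log2 units was 2.93 times the SD of 0.21 among genes at its level, and 102 of the 15677 genes had a lower difference. It is also close to the threshold of 1.5-fold. CTNNB1 encodes beta-catenin, which binds the same part of the cadherin tail. It had a signal of 6.57 in control cells and 6.42 on the knockdown-labelled array, a difference of -0.15 log2 units. CTNNA1 encodes alpha-catenin, the link from either of them to actin. It had a signal of 7.78 in control cells and 7.65 on the knockdown-labelled array, a difference of -0.13 log2 units.

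The differences of CTNNB1 and CTNNA1 were 0.71 and 0.67 times the SD of genes at their levels, and lay 0.016 log2 units apart. JUP thus differed from CTNNB1 by a further -0.48 log2 units and from CTNNA1 by -0.50. With 1 array per group these gaps between catenins cannot be tested. The probe set that CTNND1 shares with SELENOH, which encodes a selenoprotein, had signals of 7.40 and 7.27 and a difference of -0.13 log2 units. This reading cannot be assigned to either gene.

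**Figure D2:**
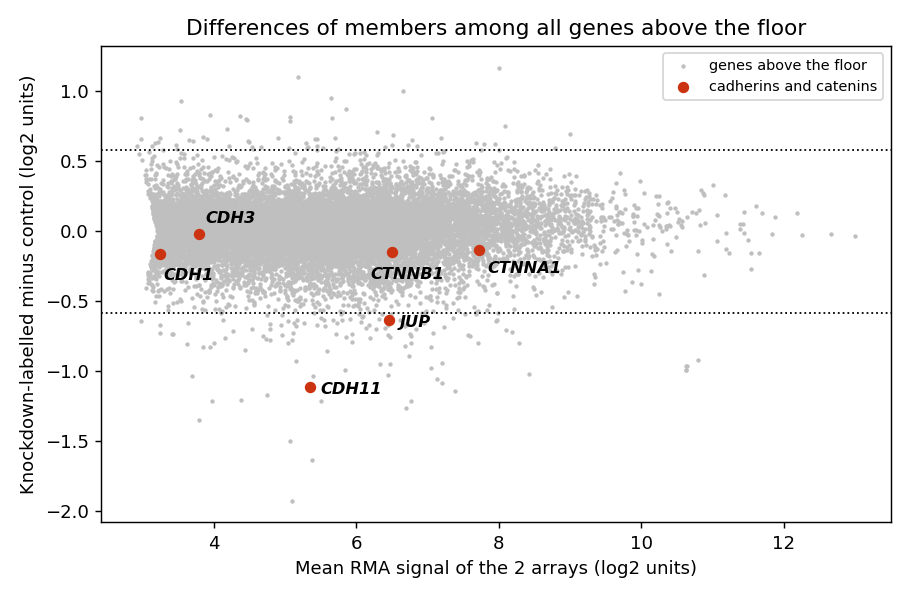
Difference between the array labelled SREBP1 knockdown and the control array in log2 units (y axis) against the mean signal of both in log2 units (x axis), 1 point per gene above the floor, with 1 array per group. The dotted lines mark 1.5-fold; CDH11 at -1.11 and JUP at -0.63 lie beyond the lower line, and the other 4 named members lie within the cloud of genes.

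RefSeq start sites were looked up for the members, and 5 of the 10 listed genes matched: CDH2, CDH4, CTNNA1, CTNNB1 and JUP. CDH11, CDH1, CDH3, CDH13 and CTNND1 had no window and were not searched. The windows of JUP and CTNNB1 are shown because these catenins share a binding partner and had unequal differences, and because SREBP1 is known to bind sterol regulatory elements and E-boxes. Each is the stretch of 250 bases before an annotated start on build GRCh38.p14, read 5′ to 3′ on the gene's strand. The windows are chr17:41786712-41786961 and chr17:41785977-41786226 on the minus strand for JUP and chr3:41199255-41199504 on the plus strand for CTNNB1. Capitals mark matches, on either strand, to TCACNCCAC, the core of the sterol regulatory element, and to CACCTG, the form of E-box that SNAI and ZEB repressors bind.
JUP, start site 1: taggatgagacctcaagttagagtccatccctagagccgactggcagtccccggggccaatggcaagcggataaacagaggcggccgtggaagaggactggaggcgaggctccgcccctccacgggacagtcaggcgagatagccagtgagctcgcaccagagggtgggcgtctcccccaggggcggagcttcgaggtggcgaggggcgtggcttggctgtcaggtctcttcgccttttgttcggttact
JUP, start site 2: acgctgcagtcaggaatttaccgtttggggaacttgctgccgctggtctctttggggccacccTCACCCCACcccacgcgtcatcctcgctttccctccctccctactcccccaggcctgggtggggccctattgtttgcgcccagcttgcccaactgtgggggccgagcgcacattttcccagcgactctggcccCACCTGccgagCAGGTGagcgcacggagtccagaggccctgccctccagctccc
CTNNB1, start site 1: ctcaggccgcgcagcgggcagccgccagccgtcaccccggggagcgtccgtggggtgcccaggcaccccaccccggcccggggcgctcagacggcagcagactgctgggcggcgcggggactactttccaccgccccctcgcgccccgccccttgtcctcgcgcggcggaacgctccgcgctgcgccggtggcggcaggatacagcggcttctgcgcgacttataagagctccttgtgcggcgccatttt
The second JUP window held 1 match to TCACNCCAC, beginning 187 bases before the start. It was the only match among the 11 windows of the 5 genes searched, which do not include CDH11. Of 35116 windows of all genes, 0.883% hold one. The same window held CACCTG 54 bases before the start and, on the other strand, CAGGTG 43 bases before it, and 17.5% of all windows hold at least 1 match of this kind. It also held CAACTG, which matches the general E-box CANNTG, of which CACCTG is one form, and 61.8% of all windows hold such a match. The first JUP window and that of CTNNB1 held none of these. The motifs were searched with the values of JUP known, the matches describe letters and not binding, and the array does not show which start the transcripts used.

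Genes that surround the complex were described through 8 lists, read against the median difference of 0.012 log2 units over all genes. Where a pair of signals is given, that of the control cells comes first. The list of other cadherin superfamily genes had 18 of 46 members above the floor, 9 higher and 7 lower. Its median was 0.0073 log2 units and its mean -0.035, and the median was -0.0048 after the signal-dependent curve was subtracted, so it has no settled sign. FAT4, a giant cadherin that binds DCHS1 in planar cell polarity and growth control, was the member beyond 1.5-fold. It had a signal of 5.18 log2 units in control cells and 4.40 on the knockdown-labelled array, or 1.71-fold lower. Its relative FAT1 was the highest of the list, with signals of 7.50 and 7.68, and DCHS1 had 3.64 on both arrays. Of other type II cadherins, CDH6, CDH7, CDH8, CDH9, CDH10, CDH12, CDH18, CDH19 and CDH20 were under the floor on both arrays. Above it on both were CDH24 with 5.58 and 5.39, CDH22 with 5.13 and 5.08, and CDH5 with 3.39 and 3.43. These DCHS1 and type II values were picked out after they were seen.

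The list of other catenin relatives had no gene beyond 1.5-fold, against 0.753% of all genes lower and 0.383% higher by that much. The list also holds CTNNBIP1, which encodes a protein that binds beta-catenin and is not itself a catenin. Of the list's 7 genes 5 were above the floor, 4 higher and 1 lower. Their median of 0.041 log2 units was the difference of CTNNBIP1. PKP4, a relative of p120-catenin also called p0071, had signals of 6.96 and 7.17, a difference of 0.21. CTNNAL1, an alpha-catenin-like protein, had the lowest difference at -0.11. In the desmosome list, which holds the other partners of plakoglobin, 8 of 14 genes were above the floor, 4 higher and 4 lower, and none was beyond 1.5-fold. The list's median was 0.0069 log2 units and was -0.016 after the curve was subtracted. DSP, which encodes desmoplakin and ties the plaque to intermediate filaments, was the highest at 7.06 in control cells and 7.28 on the knockdown-labelled array. PPL, the linker periplakin, was the lowest at 4.95 and 4.78. The desmosomal cadherin DSG2 and the plaque protein PKP2, named after their values were seen, differed by -0.029 and -0.040 log2 units.

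Partners of adherens junctions had 28 of 30 genes above the floor, 17 lower and 11 higher, and none beyond 1.5-fold. The median difference was -0.035 log2 units, or -0.073 after the curve was subtracted. IQGAP1, a scaffold that binds beta-catenin and actin, had the lowest difference, from 9.53 on the control array to 9.15 on the array labelled knockdown. ENAH, a promoter of actin filament growth, had the highest, from 5.47 to 5.73. Genes named after their values were seen included AFDN, the actin-binding partner of nectins, at -0.31 log2 units, and PTPRM, a receptor phosphatase that associates with cadherins, at -0.38. VCL, which encodes vinculin and binds stretched alpha-catenin, differed by -0.021. The list of cadherin processing and turnover had 11 of 12 genes above the floor, 6 lower and 5 higher, with a median of -0.0056, or -0.047 after the curve was subtracted. ADAM10, the protease that sheds the outer part of E-cadherin and N-cadherin, was its lowest gene, at 7.48 and 7.04 log2 units, or 1.36-fold lower. APH1A, a subunit of gamma-secretase, was its highest at 0.19.

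Genes that control or read out beta-catenin went in no single direction. The list of its destruction complex and nuclear partners had 25 of 27 genes above the floor, 15 lower and 9 higher, with none beyond 1.5-fold and a median difference of -0.062 log2 units. APC, the scaffold that leads beta-catenin to degradation, had the lowest difference, with signals of 5.30 and 4.94, and the coactivator CREBBP the highest, with 7.90 and 8.10. The list of Wnt and beta-catenin targets had 14 of 17 genes above the floor, 10 higher and 4 lower. Its median of 0.041 was 0.0033 after the curve was subtracted and 0.016 with probe sets averaged or with no floor. BMP4, a secreted ligand known as a target in colon cells, was its member beyond 1.5-fold, at 7.67 and 6.61 log2 units, or 2.08-fold lower. CCND1, which encodes cyclin D1, was the highest at 8.72 and 9.11. AXIN2, a general feedback target of the pathway, had signals of 3.47 and 3.49 log2 units, close to the floor, and was named after its value was seen.

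Transcriptional regulators of cadherins had 16 of 24 genes above the floor, 9 higher and 6 lower, and none beyond 1.5-fold. Their median of 0.026 log2 units was 0.014 with the median of all genes subtracted and 0 with no floor. DNMT1, the maintenance DNA methyltransferase, had the highest difference, with signals of 9.01 and 9.30, and SNAI2, a repressor of CDH1, the lowest, with 6.55 and 6.41. Values of 3 further repressors were picked out after they were seen. SNAI1 had 3.82 and 4.08, ZEB1 had 6.40 and 6.28, and TWIST1 was under the floor on both arrays.

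**Figure D3:**
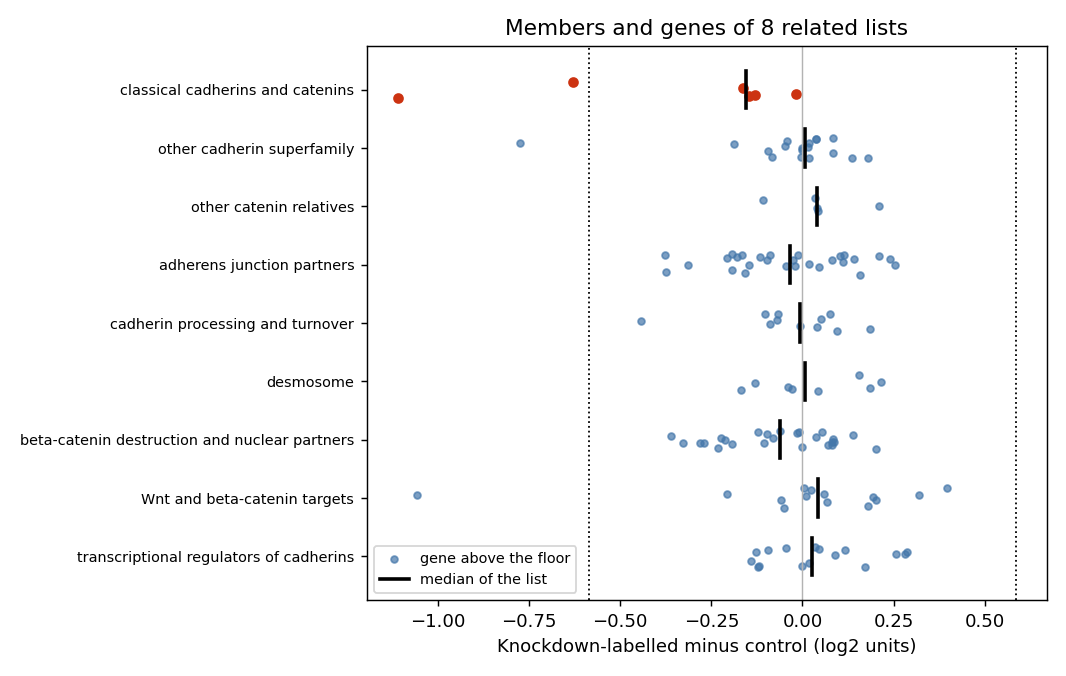
Difference between the array labelled SREBP1 knockdown and the control array in log2 units (x axis) for the cadherin and catenin members and for the 8 related gene lists (y axis), 1 point per gene above the floor, with vertical bars at each median and dotted lines at 1.5-fold. The members' median is -0.16, while the medians of the lists run from -0.062 to 0.041, and FAT4 and BMP4 are the list genes beyond the lower line.

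Markers of the line and of other cell types were read beside these results, since CDH11 is also a gene of fibroblasts. All 9 mesenchymal markers were above the floor on both arrays, and FN1, which encodes fibronectin, was the 1 beyond 1.5-fold, with 7.32 and 6.06 log2 units. VIM, which encodes vimentin, had the highest difference, with 9.46 and 9.74, and the list's median of 0.030 was -0.0053 after the curve was subtracted, with a mean of -0.11. Of 10 fibroblast markers 5 were above the floor. DCN, LUM, PDGFRA and FAP, named after their values were seen, were under it on both arrays. COL1A1, with 5.01 and 4.99, THY1, with 4.22 and 4.30, and COL1A2, with 3.65 on both, were above it. These 3 were also named after their values were seen. The lowest difference was that of PDGFRB, at 4.50 and 4.19, and the highest that of ACTA2, at 4.04 and 4.12. The sum of the 9 measured fibroblast markers on a linear scale was 121 for control cells and 118 on the knockdown-labelled array. Such sums, here and below, add signals of unlike probe sets and include genes under the floor. They compare the 2 arrays only and give no level of a cell type. Luminal epithelial markers had 12 of 15 genes above the floor, 7 lower and 4 higher. Their median of -0.061 log2 units was -0.0053 with probe sets averaged and -0.011 with no floor. ESR1 and PGR, named after their values were seen, were under the floor on both arrays. KRT7, a keratin of simple epithelia, was the lowest at 7.92 and 7.38, and KRT18 the highest at 8.65 and 8.93. The linear sum of the 15 was 1549.8 for control cells and 1470.3 on the knockdown-labelled array.

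Leukocyte markers had 7 of 12 genes above the floor and PTPRC, named after its value was seen, under it on both arrays, with a median of 0.11 log2 units that was -0.055 with the floor raised by 1 log2 unit, and a mean of -0.010. CD14 was the lowest at -0.36 and CD68, a lysosomal protein that tumour cells can also make, the highest at 0.21. The linear sum of their 11 measured genes was 530.1 and 588, and without CD68, whose probe set weighed most in the sum, it was 130.4 and 126. Endothelial markers had 4 of 7 genes above the floor, all higher, from 0.020 for VWF to 0.11 for KDR, and a linear sum of 93.3 and 95.4. Without CLDN5, whose probe set weighed most there, the sum was 53.6 and 53.2. Both sums without a gene were chosen after seeing the data. Their median of 0.065 log2 units was 0.020 with no floor. The part of any of these cell types in the values of CDH11 and JUP was not tested.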

How the data were processed

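The authors deposited 1 log2 signal for each probe set on each array. Per the submitters' processing notes these came from Affymetrix Expression Console with the RMA method, and the program's version and the build were not given in the sources used here. RMA corrects background, normalizes between arrays and summarises probes, and folds on such arrays are commonly compressed. The array medians were 3.16 and 3.17, so values were used as deposited. Depth does not apply to arrays, and their number, 1 per group, limits the precision.

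Of 70523 probe sets, 23781 named 1 gene, 1543 several and 45199 none in the platform annotation. Symbols were updated through RefSeq. With several probe sets of a gene, the one of highest mean was used. The members, lists and thresholds were chosen with earlier results of these data known. The rule for named genes took all members, SREBF1, the highest and lowest gene of each list, genes beyond 1.5-fold (at most 4 each way) and the 3 genes nearest to the member with the largest difference. Other genes are marked as named after their values were seen. As alternatives, each difference was reduced by the median of all genes or by a loess curve on mean signal (fraction 0.3), called the signal-dependent curve, or the analysis averaged probe sets or altered the floor, the threshold or the summary. A further list set out at the start is not reported here. The code was tested on simulated data. Versions were Python 3.11.15, statsmodels 0.14.6, pandas 2.3.3, numpy 2.4.6 and, for figures, matplotlib 3.10.9.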

Additional observations from a re-analysis of the deposited data

How the results depend on the processing

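With the median difference of all genes or a signal-dependent curve subtracted, with probe sets averaged, with signals under the floor raised to it, or with the floor dropped, raised by 1 log2 unit or set on the mean of both arrays, 2 members were at least 1.5-fold lower and 0 higher. CDH11 and JUP lay more than 1 log2 unit above the floor on both arrays, so the altered floors could not remove them from this count. At 2-fold the count was 1. The median difference of the members, -0.16 log2 units, was -0.39 with the raised floor, which leaves 4 members, and -0.37 when the mean was taken. Under the alternatives run on single genes, differences ran from -1.12 to -1.11 for CDH11 and from -0.65 to -0.63 for JUP. The ranges were -0.17 to -0.15 for CTNNB1, -0.18 to -0.13 for CTNNA1, -0.18 to -0.11 for CDH1 and -0.035 to -0.017 for CDH3. Averaging could not change members with 1 probe set each, and raising signals to the floor changed CDH1 alone, so only the 2 subtractions could move the rest. Both subtractions made these negative differences more negative. They could therefore turn no sign, and they could not take CDH11 or JUP out of the count at 1.5-fold. That no sign turned is thus no check of direction. Including the probe set shared by CTNND1 and SELENOH, an alternative chosen after seeing the data, gave a median of -0.15 over 7 genes. Over the 8 related lists, 2 genes were at least 1.5-fold lower and 0 higher under each alternative run on them. Of all genes above the floor, 0.753% were lower and 0.383% higher by that much in the main analysis. No paired analysis was possible because each group has 1 array. No replicate could be left out, and signals near the floor limit what can be read for CDH1, CDH2 and CDH3.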
